A study of Mus musculus with 3 samples.

Results

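Epineurial mesenchymal cells of the mouse sciatic nerve were described here against the other mesenchymal classes captured with them. The cells were those that the authors' annotation names MES_EPI, and they numbered 2243 of 7234 annotated cells found in the matrices. They made up 540 of 1343 annotated cells in the intact nerve, 676 of 1780 in the day 7 bridge and 1027 of 4111 in the day 21 bridge. All mice carried the R26-TomatoLSL reporter driven by Pdgfrb-cre/ERT2, a Cre that acts after tamoxifen in cells that use the Pdgfrb promoter. The sciatic nerve was either left intact or injured, and after injury the tissue taken was the bridge region at 7 or 21 days. Enzymes (collagenase with hyaluronidase) freed the cells of pooled nerves, and TdTomato was the gate of the sort, so cells that never used Pdgfrb are largely missing, and beads that take out myelin served the intact sample alone. Sex, age, strain and the number of animals are not given in the sources used here. Each group was 1 library, so no difference has a replicate check, no test was made, and every interval covers counting error only.

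The epineurium is the loose collagenous coat that surrounds the whole nerve and its vessels. Inside it lies the perineurium, a sheet of flattened cells joined by tight junctions that forms the barrier around each fascicle, and inside that lie the endoneurial fibroblasts among the axons and Schwann cells. Epineurial fibroblasts are related to the adventitial fibroblasts that surround vessels in many organs, a type known for Pi16, Dpp4 and Ly6a and for making collagen, elastic fibres and complement. After a nerve is cut, a tissue bridge forms between the stumps and mesenchymal cells enter it.

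Total UMIs (unique molecular identifiers, each standing for 1 captured transcript) summed over the epineurial class were 3947912 in the intact library, 13544647 at day 7 and 10301753 at day 21. Median UMIs per epineurial cell were 6936.5, 19883.5 and 9666 in that order, which is also the order of libraries in every set of values below. The other classes were the endoneurial class (663, 255 and 487 cells), the perineurial class (116, 241 and 2069), MES_DIFF (16, 308 and 387), MES_EPI-diff (1, 94 and 22) and the dividing class (7, 206 and 119), and what the authors meant by MES_DIFF and MES_EPI-diff is not given in the sources used here. A class entered a comparison only where it had at least 50 cells in that library. Libraries shared 41 barcodes (intact and day 7), 41 (intact and day 21) and 58 (day 7 and day 21), and 9 of the 2243 epineurial barcodes were among them. TdTomato transcripts stood at 60.5, 56.3 and 50.0 CPM (UMIs of a gene per 1000000 UMIs of the class) in epineurial cells, against 85.6, 93.1 and 86.4 in endoneurial cells and 37.2, 97.0 and 64.5 in perineurial cells.

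Epineurial cells made up 40.2% of the annotated cells of the intact nerve (95% exact binomial interval 37.6 to 42.9). In the bridge they made up 38.0% (35.7 to 40.3) of the day 7 cells, and 24.98% (23.7 to 26.3) of those of day 21. Depth differed between classes, and the share moved with it. Among cells with at least 5000 UMIs the epineurial share was 52.2%, 38.3% and 29.5%. These are shares of sorted and annotated cells, and how sorting and cell filters set them was not tested.

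The 6 genes that mark the class were each higher in epineurial cells than in every compared class of every library. Pi16 encodes peptidase inhibitor 16, a secreted and membrane-anchored protein of adventitial fibroblasts, and its level in epineurial cells was 1126, 631 and 651 CPM. In endoneurial cells it was 11.2, 52.5 and 41.6 CPM, and in perineurial cells 4.14, 30.9 and 17.6 CPM. Epineurial Pi16 was therefore 100.2-fold higher (95% interval 73.2 to 141) than endoneurial in the intact nerve, 12.0-fold higher (95% interval 10.4 to 13.9) at day 7 and 15.7-fold higher (95% interval 13.5 to 18.2) at day 21. Epineurial cells were high and both other layers low in all 3 libraries, and the intervals of counting error did not overlap. The classes are clusters of these same cells, so this describes the class and does not test it. Sfrp2, a secreted Wnt modulator, stood at 369, 752 and 489.5 CPM in epineurial cells. Endoneurial cells had 1.15, 35.1 and 1.61 CPM of it and perineurial cells 0, 10.1 and 1.87 CPM. Day 7 had the highest epineurial level of Sfrp2 and also the highest level outside the class, with 60.5 CPM in dividing cells.

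Clec3b encodes tetranectin, a plasminogen-binding lectin, and stood at 2283, 1259.6 and 2642 CPM in epineurial cells against 305, 45.8 and 201 CPM in endoneurial and 23.4, 19.5 and 211 CPM in perineurial cells. MES_DIFF cells at day 21 held 903 CPM of it. Dpt encodes dermatopontin, a matrix protein that binds decorin and collagen, and its epineurial level was 872, 649 and 1019 CPM. At day 7 the MES_EPI-diff class came close to it with 574 CPM, while endoneurial cells had 17.0, 14.2 and 12.2 CPM over the 3 libraries. Ly6c1, a small surface protein anchored by a lipid, stood at 759, 426 and 302 CPM in epineurial cells and at 12.7, 17.1 and 5.29 CPM in endoneurial cells. Ly6c1 has a near-identical neighbour, Ly6c2, and reads that fit both can be split or lost in counting, so its level is uncertain. Pcolce2, an enhancer of the protease that trims procollagen, differed most between libraries, with 645, 35.4 and 106 CPM in epineurial cells. Its level in the intact nerve was far above those in both bridges, and it was at 2.31, 0 and 0.689 CPM in endoneurial cells.

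**Figure D1:**
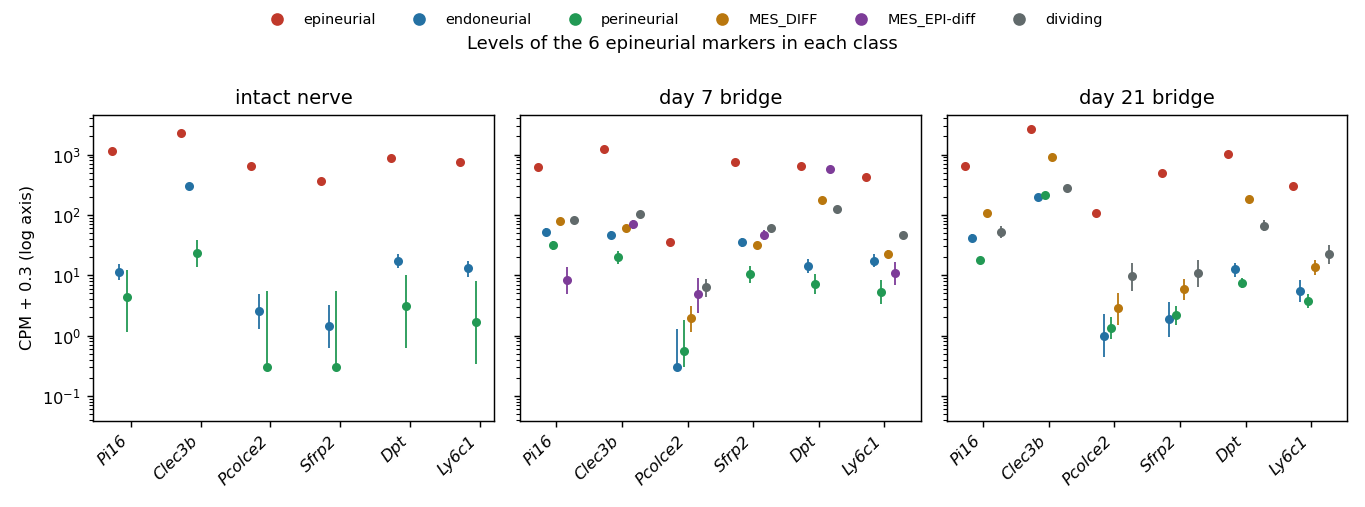
Level of each of the 6 marker genes (CPM plus 0.3, log axis) in every class with at least 50 cells, 1 panel per library. Points are sums over the cells of a class and bars are exact 95% Poisson intervals. The epineurial points, in red, are the highest for every gene in every library, with Dpt at day 7 closest to another class.

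To compare shares of cells at 1 depth, each cell was thinned at random to 2000 UMIs, which every annotated cell reached. Pi16 was then seen in 37.8%, 41.7% and 41.3% of epineurial cells, against 2.11%, 9.02% and 6.98% of endoneurial and 0%, 5.81% and 2.51% of perineurial cells. Before thinning, Pi16 was seen in 50.6%, 72.2% and 64.5% of epineurial cells. Clec3b was seen in 89.8%, 71.6% and 96.7% of epineurial cells after thinning and Pcolce2 in 60.2%, 6.51% and 15.2%. Dpt was seen in 64.6%, 58.7% and 71.6% of them, Ly6c1 in 58.0%, 43.2% and 32.6% and Sfrp2 in 17.4%, 41.7% and 22.4%. No share outside the class reached the epineurial one for any marker, and the closest was Dpt at day 7, in 52.1% of MES_EPI-diff cells. Endoneurial cells gave Clec3b in 30.9%, 5.88% and 29.4% of cells. A thinned epineurial cell held a median of 3 of the 6 markers in every library, and endoneurial and perineurial cells held a median of 0. None of the 6 was seen in 13 of 540, 61 of 676 and 14 of 1027 epineurial cells, and all 6 were seen in 32, 16 and 32 of them. The markers followed the label in each library, which is no check on the label because the classes are clusters of these same cells. Day 7 had the largest share of epineurial cells with none of the markers.

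**Figure D2:**
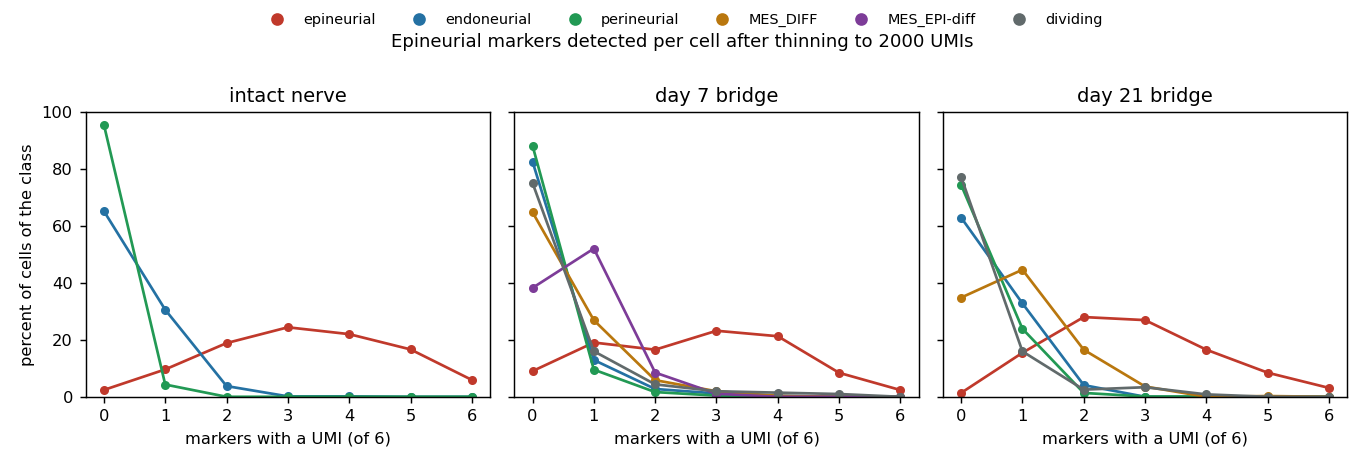
Percent of the cells of each class (y axis) that held 0 to 6 of the marker genes (x axis) after thinning to 2000 UMIs, 1 panel per library and 1 line per class. Epineurial cells, in red, have a median of 3 markers in all panels, and the endoneurial and perineurial lines start high at 0 markers.

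The markers lie on several chromosomes. In the mm10 build (GENCODE M21), Dpt is at chr1:164796644-164824266, Sfrp2 at chr3:83766321-83774316, Clec3b at chr9:123150946-123157432, Pcolce2 at chr9:95637601-95698096 and Ly6c1 at chr15:75044018-75048830, each a protein-coding gene. UMIs were summed over the whole gene, so no exon, intron or UTR can be named for them. The start regions of 3 leading genes are shown because their transcripts were high together in epineurial cells: Pi16, Dpt and Mmp3, a stromelysin described below. Each runs from 250 bases before to 50 after the RefSeq start (GRCm38.p6), 5′ to 3′ on the gene's strand, with matches on either strand in capitals. The letters searched were CANNTG for the E-box, TATAAA for the TATA box and, for the AP-1 site, TGANTCA.
Pi16 (chr17:29318632-29318931, + strand): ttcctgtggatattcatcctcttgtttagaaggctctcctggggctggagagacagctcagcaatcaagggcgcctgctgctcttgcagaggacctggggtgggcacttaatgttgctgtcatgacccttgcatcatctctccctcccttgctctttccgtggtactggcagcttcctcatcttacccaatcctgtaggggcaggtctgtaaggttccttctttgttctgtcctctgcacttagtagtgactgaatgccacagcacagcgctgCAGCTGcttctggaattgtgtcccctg
Dpt (chr1:164796413-164796712, + strand): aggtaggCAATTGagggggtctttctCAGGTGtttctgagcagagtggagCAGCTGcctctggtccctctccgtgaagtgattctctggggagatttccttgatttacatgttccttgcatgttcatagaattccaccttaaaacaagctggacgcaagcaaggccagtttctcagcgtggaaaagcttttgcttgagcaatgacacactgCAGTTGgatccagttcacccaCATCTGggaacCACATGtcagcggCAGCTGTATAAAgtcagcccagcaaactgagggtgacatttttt
Mmp3 (chr9:7445572-7445871, + strand): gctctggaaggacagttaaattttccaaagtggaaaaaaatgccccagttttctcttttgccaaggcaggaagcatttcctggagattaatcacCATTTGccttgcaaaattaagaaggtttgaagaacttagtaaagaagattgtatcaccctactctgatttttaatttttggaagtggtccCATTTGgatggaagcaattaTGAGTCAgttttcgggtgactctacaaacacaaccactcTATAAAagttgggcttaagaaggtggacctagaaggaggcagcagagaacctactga

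The E-box letters occurred 1 time in the Pi16 window, 7 times in Dpt and 2 times in Mmp3. TATAAA occurred 1 time each in Dpt and Mmp3, and TGANTCA 1 time in Mmp3. The 6 markers and the 15 genes leading in all 3 libraries, described next, make 17 genes, of which 12 had a window in the RefSeq table. An E-box was present in 7 of these 12, against 72.3% of all 32851 windows, TATAAA in 4 of 12 against 13.6%, and TGANTCA in 2 of 12 against 7.81%. A gene counted where any of its windows held the letters, whereas the percents are of single windows, so the shares are not like for like. All are matches of letters only.

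Across all genes, UMIs were summed per class within a library and ratios of CPM were taken after adding 0.5 counts to each sum. Genes with at least 20 CPM in either class were counted, and a ratio past 2-fold is called here. Against the endoneurial class, 546 of 6123 genes (8.92%) were higher past 2-fold in the intact nerve, 494 of 5900 (8.37%) at day 7 and 534 of 6077 (8.79%) at day 21. Lower past 2-fold were 468 (7.64%), 425 (7.2%) and 385 (6.34%). Against the perineurial class, 799 of 6813 genes (11.7%) were higher in the intact nerve, 536 of 6092 (8.8%) at day 7 and 607 of 6411 (9.47%) at day 21, and 1220 (17.9%), 512 (8.4%) and 690 (10.8%) were lower. The median log2 ratio over all counted genes was -0.02, -0.09 and -0.08 against endoneurial cells and -0.26, -0.18 and -0.22 against perineurial cells. Scaling by a trimmed mean of M values, which sets the bulk of genes near 0, used log2 factors of -0.02 to -0.31, which raise the ratios by that much, and turned the perineurial split to 1082 higher and 856 lower, 697 and 385, and 742 and 530.

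Set against every other compared class at once, 330 of 7092 genes (4.65%) were higher past 2-fold than the highest of them in the intact nerve, 130 of 6955 (1.87%) at day 7 and 203 of 7493 (2.71%) at day 21. Lower than the lowest of them were 305 (4.3%), 92 (1.32%) and 186 (2.48%). With the trimmed mean scaling the day 21 split was 266 higher and 132 lower. The number of classes compared differed, with 2 comparators in the intact nerve, 5 at day 7 and 4 at day 21, so these counts are not comparable across libraries. The classes are clusters of these same cells, and the genes that separate them are described and not tested.

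In the intact nerve the genes leading over both other layers were Sfrp2, Pcolce2, Dkk2, Sfrp4, Gpnmb, C7, Cxcl13, Ifi205, Pi16 and Mmp3. Dkk2, a secreted Wnt antagonist, stood at 179.8, 104 and 173 CPM in epineurial cells and at 0.576, 10.4 and 0.460 CPM in endoneurial cells. Its epineurial level was high in all 3 libraries. Cxcl13, a chemokine that attracts B cells, stood at 317, 7.83 and 7.18 CPM and C7, a terminal complement component, at 261, 2.44 and 28.0 CPM. Both were high in the intact nerve alone, and at day 7 C7 was lower in epineurial than in endoneurial cells (7.49 CPM). Gpnmb, a membrane glycoprotein, stood at 110.2, 10.9 and 34.5 CPM, also with its high value in the intact nerve.

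At day 7 the leading genes over all 5 other classes were Sfrp2, Clec3b, Ly6c1, Ly6a, C4b, Eln, Pi16, Ace, Cd55 and Fgf18, and at day 21, over 4 classes, Sfrp2, Pcsk6, Inmt, Ly6c1, Itga11, Eln, Ly6a, Pcolce2, Ifi207 and Gpx3. Fgf18, a fibroblast growth factor, stood at 32.7, 50.9 and 35.3 CPM in epineurial cells and 3.46, 4.28 and 1.84 CPM in endoneurial cells. Ace, the angiotensin-converting enzyme, stood at 204, 112 and 228 CPM in epineurial and 1.38, 2.40 and 2.69 CPM in perineurial cells. It had been placed on the perineurial marker list, and these data go against that placing. Pcsk6, a proprotein convertase, stood at 76.7, 49.3 and 62.2 CPM in epineurial cells and no higher than 1.34 CPM in the other 2 layers. Itga11, a collagen-binding integrin chain, stood at 44.3, 33.1 and 50.4 CPM. Inmt, a methyltransferase of small amines, went from 1099 CPM in the intact nerve to 6.05 at day 7 and 65.9 at day 21, and led over the other classes at day 21 in spite of its lower level there.

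Over all 3 libraries together, 158 of 5712 genes were higher past 2-fold than in both the endoneurial and perineurial classes every time, and 104 were lower every time. The 15 with the largest smallest ratio were Dpt, Mmp3, Gdf10, Ifi205, Ly6c1, Sfrp2, Mfap4, Gas1, Ly6a, Eln, Cilp, Hmcn2, Pi16, Fst and Gpx3. Mmp3, a stromelysin that cuts proteoglycans and other matrix proteins, stood at 155, 101 and 178 CPM in epineurial cells and at 1.44, 2.14 and 1.15 CPM in endoneurial cells. Epineurial Mmp3 was 107-fold higher (95% interval 45.8 to 332) in the intact nerve, 47.2-fold higher (95% interval 23.9 to 109) at day 7 and 155-fold higher (95% interval 66.1 to 477) at day 21. No perineurial cell held a Mmp3 UMI in the first 2 libraries, which allows up to 4.14 and 0.800 CPM (3 counts of the class total). Eln, which encodes elastin, stood at 655, 967 and 659 CPM against 16.7, 71.2 and 5.52 CPM in endoneurial and 1.38, 11.7 and 6.95 CPM in perineurial cells. Gdf10, a ligand of the BMP family, stood at 519, 112 and 349 CPM, with its lowest epineurial value at day 7. Endoneurial cells held 6.63, 0.268 and 4.14 CPM of it, which is low in every library.

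Mfap4, a protein of elastic microfibrils, stood at 329, 675 and 499.8 CPM in epineurial cells and 3.46, 28.6 and 3.91 CPM in endoneurial cells. Cilp, a matrix protein first known from cartilage, stood at 327, 936 and 792 CPM, with both bridges above the intact nerve. MES_DIFF cells held more Cilp than epineurial cells at day 7, at 1147 CPM, and less at day 21, at 458 CPM. Gas1, a surface coreceptor for hedgehog ligands, stood at 1145, 495 and 725 CPM and Fst, the activin antagonist follistatin, at 388, 222 and 106 CPM. For both, the intact nerve had the highest epineurial value. Gpx3, a secreted glutathione peroxidase, stood at 335, 578 and 724 CPM and Hmcn2, a hemicentin of the matrix, at 119, 60.4 and 216 CPM. Ifi205, a member of the interferon-inducible p200 family whose copies share sequence, stood at 194, 80.2 and 149 CPM, and the split of reads among those copies is uncertain. The smallest perineurial ratio of these 15 genes in the intact nerve was 15.2-fold.

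**Figure D3:**
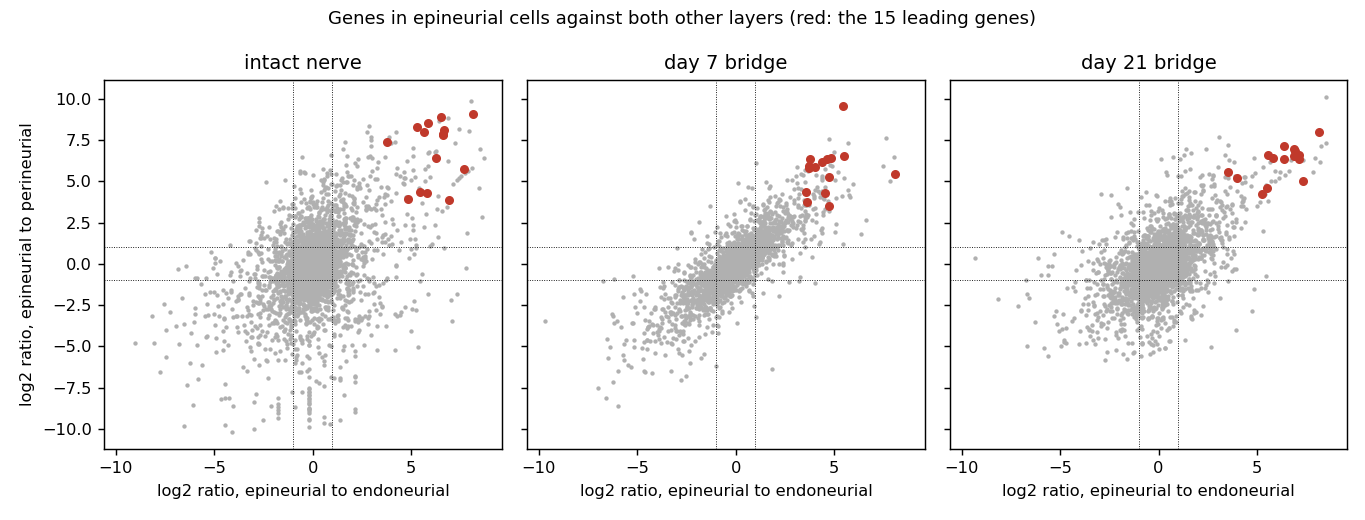
Log2 ratio of epineurial to endoneurial CPM (x axis) against that of epineurial to perineurial CPM (y axis), 1 point per gene with at least 20 CPM in a compared class, 1 panel per library. Dotted lines mark 2-fold, and the 15 genes leading over both layers in all 3 libraries, in red, lie in the upper right of every panel.

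Genes low in epineurial cells were led in the intact nerve by Tenm2, Spp1, Thbs4, Tec and Cspg4, at day 7 by Spp1, Csrp1, Stmn1, Fjx1 and Serpine2, and at day 21 by Sbspon, Tenm2, Lgals7, Cspg4 and Nrp2. Tenm2, a teneurin that joins cells across a gap, stood at 2.03, 1.99 and 17.1 CPM in epineurial cells, against 179.8, 128 and 170.3 CPM in endoneurial and 349, 182 and 420.3 CPM in perineurial cells. It was 88.7-fold lower (95% interval 44.8 to 206) in epineurial than in endoneurial cells of the intact nerve. Spp1, the secreted phosphoprotein osteopontin, stood at 5.57, 41.6 and 4.47 CPM in epineurial and 426, 1005 and 182 CPM in endoneurial cells. Its day 7 values were the highest in both classes. Cspg4, the NG2 proteoglycan, stood at 7.09, 8.12 and 13.7 CPM against 143, 86.7 and 161 CPM in endoneurial cells. Nrp2, a semaphorin and VEGF coreceptor, stood at 6.33, 10.6 and 13.8 CPM against 152, 40.9 and 145 CPM, so epineurial cells were low for both genes in every library.

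Gene groups were read by how many counted members passed 2-fold, beside the shares over all genes given above. The first group holds universal fibroblast surface and progenitor genes, such as Ly6a and Dpp4. Against endoneurial cells 9, 9 and 9 of 15, 15 and 15 counted members were higher past 2-fold and 3, 1 and 0 lower, with median log2 ratios of 1.62, 1.39 and 1.58. Against perineurial cells 11, 12 and 11 of 15, 15 and 15 counted members were higher past 2-fold and 1, 0 and 0 lower, with median log2 ratios of 2.38, 1.70 and 2.31. Ly6a, the stem cell antigen Sca-1, stood at 1467, 1078 and 961 CPM in epineurial cells and 105, 65.0 and 20.2 CPM in endoneurial cells, though related Ly6 genes can share its reads. Has1, a hyaluronan synthase, stood at 325, 388 and 459.5 CPM, and Procr, the endothelial protein C receptor, at 127, 34.6 and 40.6 CPM. Epineurial cells were above endoneurial cells in every library for Has1 (9.22, 164 and 105 CPM), and for Procr in the intact nerve and at day 21 (26.5, 36.7 and 6.205 CPM). Eng, a TGF-beta coreceptor, stood at 33.2, 31.4 and 27.1 CPM against 9.80, 9.10 and 12.6 CPM.

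Interstitial collagens and the genes that process them had more members past 2-fold over endoneurial cells at day 7 than in the other libraries. Against endoneurial cells 7, 19 and 9 of 22, 22 and 23 counted members were higher past 2-fold and 1, 0 and 0 lower, with median log2 ratios of -0.01, 1.59 and 0.64, where the intact median was 0.01 with the trimmed mean scaling and 0.13 with cells weighted alike. Against perineurial cells 14, 17 and 18 of 23, 23 and 24 counted members were higher past 2-fold and 2, 1 and 1 lower, with median log2 ratios of 1.37, 1.99 and 1.54. Col1a1 stood at 4656, 17920.1 and 12138 CPM in epineurial cells and 8335, 5684 and 10527 CPM in endoneurial cells, so the endoneurial level was above in the intact nerve and below in both bridges. Col12a1 and Col14a1, which sit on the surface of collagen fibrils, stood at 38.5, 355 and 119 CPM and 363, 1262 and 621 CPM. Both were highest at day 7, where endoneurial cells had 20.9 and 122 CPM. Loxl1, a cross-linking oxidase needed for elastic fibres, stood at 267, 425 and 365 CPM against 28.0, 68.5 and 42.1 CPM. Col6a6 stood at 14.4, 44.8 and 81.0 CPM and was near 0 in both other layers.

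Elastic fibre genes, which build the stretchable fibres of the matrix, had more members higher than lower in each comparison. Against endoneurial cells 8, 9 and 9 of 16, 16 and 16 counted members were higher past 2-fold and 1, 0 and 1 lower, with median log2 ratios of 1.11, 1.20 and 1.18. Against perineurial cells 9, 9 and 10 of 15, 16 and 16 counted members were higher past 2-fold and 0, 1 and 1 lower, with median log2 ratios of 2.15, 1.12 and 1.21. Fbln1, a fibulin, stood at 759, 267 and 382 CPM in epineurial cells and 16.1, 50.3 and 34.0 CPM in endoneurial cells, and Emilin2 at 116, 147 and 119.6 CPM against 5.76, 22.2 and 25.05 CPM. Small leucine-rich proteoglycans and matricellular genes, whose products coat collagen or signal from the matrix, gave 13, 13 and 13 of 24, 23 and 24 counted members higher than endoneurial and 5, 4 and 3 lower (medians 1.37, 1.58 and 1.74). Against perineurial cells they gave 11, 16 and 15 of 24, 24 and 24 higher and 5, 2 and 4 lower (medians 0.91, 1.75 and 1.77). Nov, a CCN-family protein, stood at 99.3, 393 and 154 CPM in epineurial and 81.3, 12.0 and 14.5 CPM in endoneurial cells, with its gap at its widest on day 7. Wisp2, of the same family, stood at 78.5, 24.8 and 55.6 CPM against 0.865, 0.803 and 0.230 CPM. Fmod, fibromodulin, stood at 68.9, 68.9 and 25.04 CPM, while intact perineurial cells held 247 CPM.

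Basement membrane genes had more members lower than higher in each comparison other than that with intact perineurial cells. Against endoneurial cells 0, 0 and 0 of 13, 14 and 13 counted members were higher past 2-fold and 6, 4 and 3 lower, with median log2 ratios of -0.83, -0.53 and -0.26. Against perineurial cells 4, 0 and 1 of 13, 14 and 13 counted members were higher past 2-fold and 2, 3 and 3 lower, with median log2 ratios of -0.34, -0.56 and -0.84. Col15a1, a collagen of basement membrane zones, stood at 234, 177 and 435 CPM in epineurial and 1565, 896 and 1541 CPM in endoneurial cells, and Col18a1 at 29.6, 82.2 and 126 CPM against 237, 405 and 381 CPM. Endoneurial cells were above epineurial cells in every library for both. Lamb1, a laminin chain, was below the endoneurial level in the intact nerve (98.5 against 302 CPM) and near it at day 7 (224 against 236 CPM).

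Matrix proteases and their inhibitors gave 8, 7 and 8 of 18, 19 and 20 counted members higher than endoneurial and 1, 1 and 3 lower, with medians of 0.29, 0.73 and 0.17. Against perineurial cells 11, 11 and 13 of 16, 19 and 18 were higher and 0, 1 and 0 lower, with medians of 2.33, 2.18 and 1.68. Mmp23 stood at 143, 219.6 and 179 CPM in epineurial cells and 18.4, 31.8 and 17.0 CPM in endoneurial cells, and Plau, the urokinase protease, at 64.8, 40.2 and 36.8 CPM against 19.02, 6.42 and 7.58 CPM. Htra1, a serine protease, stood at 382, 236 and 459.8 CPM in epineurial and 27.6, 9.06 and 5.61 CPM in perineurial cells, but at 582, 152 and 419.9 CPM in endoneurial cells. Hyaluronan and glycosaminoglycan genes had 3, 5 and 5 of 13, 15 and 15 members higher than endoneurial and 4, 1 and 3 lower, and 8, 8 and 9 of 15, 16 and 15 higher than perineurial and 5, 1 and 3 lower. Tnfaip6, which binds hyaluronan, stood at 528, 885 and 675 CPM in epineurial, 283, 220.3 and 267 CPM in endoneurial and 9.65, 50.6 and 13.4 CPM in perineurial cells.

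Secreted ligands and their antagonists followed. Of the Wnt ligands, inhibitors and receptors (Sfrp2 is left to the markers), against endoneurial cells 10, 9 and 10 of 11, 12 and 12 counted members were higher past 2-fold and 0, 2 and 0 lower, with median log2 ratios of 3.12, 2.00 and 1.91. Against perineurial cells 7, 9 and 6 of 13, 13 and 13 counted members were higher past 2-fold and 4, 3 and 2 lower, with median log2 ratios of 1.13, 1.59 and 0.95. Sfrp4 stood at 2156, 981 and 1563 CPM in epineurial, 12.1, 169 and 31.0 CPM in endoneurial and 6.89, 116 and 21.5 CPM in perineurial cells. A different inhibitor, Sfrp5, was at 6.59, 4.73 and 33.3 CPM in epineurial cells and at 5490.3, 300.1 and 796 CPM in perineurial cells. The ligand Wnt6 also stood low in epineurial cells (2.03, 4.80 and 22.3 CPM) and high in perineurial cells (470.2, 86.9 and 375 CPM).

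Among BMP and TGF-beta ligands and antagonists, 10, 9 and 9 of 20, 16 and 16 counted members were higher than endoneurial and 4, 4 and 3 lower (medians 1.00, 1.14 and 1.34). Against perineurial cells 8, 6 and 4 of 18, 16 and 18 were higher and 4, 2 and 5 lower (medians 0.73, 0.76 and -0.49). Chrdl1, a BMP antagonist, stood at 222, 116 and 139.6 CPM in epineurial and 2.02, 21.1 and 22.8 CPM in endoneurial cells. Perineurial cells held 113, 78.4 and 209 CPM of it, above the epineurial level at day 21.

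IGF axis genes gave 3, 2 and 5 of 8, 9 and 8 members higher than endoneurial and 0, 0 and 0 lower, and 5, 4 and 4 of 8, 8 and 8 higher than perineurial and 1, 0 and 1 lower. Igf1, insulin-like growth factor 1, stood at 717, 1837 and 2224 CPM in epineurial, 243, 1107 and 802 CPM in endoneurial and 45.5, 666 and 112 CPM in perineurial cells. Igfbp3, which binds it, stood at 186, 205 and 176 CPM against 3.46, 120.4 and 5.75 CPM in endoneurial cells, with the gap small on day 7. Igfbp6 was highest in perineurial cells, at 15464, 3632 and 13059 CPM against 3239, 2205 and 3589 CPM in epineurial cells.

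Growth and neurotrophic factors gave 11, 7 and 11 of 15, 14 and 16 members higher than endoneurial and 2, 2 and 1 lower (medians 3.19, 1.15 and 1.90). Against perineurial cells 9, 7 and 9 of 16, 16 and 15 were higher and 2, 4 and 1 lower (medians 2.28, 0.93 and 1.67). Angptl1, an angiopoietin-like protein, stood at 387, 738 and 919 CPM in epineurial and 72.9, 24.6 and 45.04 CPM in endoneurial cells. Its relative Angptl7 went the other way, with 23.1, 11.6 and 5.73 CPM in epineurial and 1197, 271 and 246 CPM in endoneurial cells. Angpt1, a ligand of the endothelial receptor Tie2, stood at 38.5, 24.4 and 44.8 CPM against 0.576, 8.56 and 1.15 CPM. Ntf3, neurotrophin 3, stood at 27.6, 6.28 and 8.25 CPM, low outside the intact nerve.

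Pdgfrb, whose promoter drives the label, stood at 347, 136 and 197 CPM in epineurial, 382, 123 and 299 CPM in endoneurial and 314, 47.7 and 125 CPM in perineurial cells. Pdgfra, the receptor that marks fibroblasts, stood at 718, 287 and 504 CPM in epineurial, 1156, 403 and 701 CPM in endoneurial and 197, 152 and 42.5 CPM in perineurial cells. Epineurial Pdgfra lay between the other 2 layers in every library. Of the PDGF list, 0, 1 and 0 of 3, 4 and 3 counted members were higher than endoneurial, 2, 1 and 2 of 3, 4 and 3 were higher than perineurial, and none was lower past 2-fold in either comparison.

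Chemokines and cytokines were split against the endoneurium and mostly high against the perineurium. Against endoneurial cells 7, 6 and 6 of 14, 14 and 14 counted members were higher past 2-fold and 4, 4 and 3 lower, with median log2 ratios of 1.03, 0.51 and -0.30, where the day 7 median was -0.02 with cells weighted alike and the intact one -0.82 where only genes with at least 100 CPM were counted. Against perineurial cells 13, 10 and 10 of 14, 14 and 13 counted members were higher past 2-fold and 0, 2 and 0 lower, with median log2 ratios of 2.84, 1.89 and 2.20. Cxcl10, an interferon-induced chemokine, stood at 86.1, 145 and 192 CPM in epineurial and 30.0, 30.0 and 43.0 CPM in endoneurial cells. Ccl2, which attracts monocytes, stood at 163, 473 and 152 CPM in epineurial cells and was higher in endoneurial cells of every library, at 899, 1986 and 1111 CPM. Cxcl12, which binds CXCR4, stood at 453, 146 and 137 CPM against 208, 46.3 and 175 CPM, above endoneurial cells in the intact nerve and at day 7 and below them at day 21.

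Complement genes gave 10, 6 and 8 of 12, 11 and 10 members higher than endoneurial and 0, 1 and 0 lower, with medians of 3.08, 1.39 and 1.82. Against perineurial cells 6, 5 and 4 of 13, 12 and 12 were higher and 3, 2 and 2 lower, with medians of 0.73, 0.60 and 0.58. C3, the central component, stood at 1392, 271 and 282 CPM in epineurial, 15.9, 53.8 and 64.3 CPM in endoneurial and 2.76, 43.7 and 7.33 CPM in perineurial cells. Epineurial C3 was 87.8-fold higher (95% interval 67.4 to 117) than endoneurial in the intact nerve and 5.04-fold higher (95% interval 4.37 to 5.84) at day 7. C4b stood at 537, 203 and 222 CPM against 21.6, 22.2 and 27.8 CPM.

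Retinoid genes gave 4, 1 and 4 of 11, 11 and 12 members higher than endoneurial and 2, 4 and 3 lower, and 2, 1 and 4 of 13, 11 and 12 higher than perineurial and 3, 5 and 3 lower. Adh1, an alcohol dehydrogenase that can oxidise retinol, stood at 209.98, 6.28 and 24.5 CPM in epineurial and 31.1, 9.90 and 5.29 CPM in endoneurial cells, high in the intact nerve. Rbp4, the retinol carrier, stood at 114, 90.6 and 91.4 CPM against 186, 5.09 and 7.81 CPM, below endoneurial cells in the intact nerve and above them in both bridges. Lipid handling genes were split, with 6, 4 and 4 of 13, 13 and 14 higher than endoneurial and 3, 5 and 4 lower, and 6, 4 and 6 of 14, 12 and 13 higher than perineurial and 2, 3 and 1 lower. Ptgis, prostacyclin synthase, stood at 95.2, 95.6 and 66.0 CPM against 0.288, 14.7 and 10.1 CPM in endoneurial cells. Apod, apolipoprotein D, stood at 1377, 270.4 and 833 CPM in epineurial cells and was far above that in endoneurial cells, at 25252, 15412 and 15233 CPM.

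Transcription factors of connective tissue fell on both sides, with 11, 9 and 7 of 29, 28 and 27 members higher than endoneurial and 8, 10 and 9 lower, and 14, 9 and 9 of 30, 27 and 27 higher than perineurial and 10, 8 and 9 lower. Osr1 stood at 178, 48.2 and 57.1 CPM in epineurial and 9.22, 4.01 and 4.14 CPM in endoneurial cells, Ebf3 at 50.4, 41.6 and 38.3 CPM against 3.46, 0.535 and 3.45 CPM, and Gata6 at 26.8, 13.2 and 15.05 CPM against 0.288, 0.535 and 2.53 CPM. These factors were above the endoneurial level in every library. Foxc2 stood at 3.29, 0.886 and 1.16 CPM in epineurial cells, below 18.4, 20.9 and 10.3 CPM in endoneurial and 68.9, 32.5 and 20.9 CPM in perineurial cells.

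Hedgehog and Notch genes gave 5, 3 and 5 of 12, 11 and 13 members higher than endoneurial and 2, 1 and 1 lower, and 4, 3 and 3 of 13, 12 and 14 higher than perineurial and 5, 3 and 5 lower. The coreceptor Cdon was high in epineurial cells (92.7, 62.1 and 122 CPM) and low in endoneurial cells (2.59, 3.75 and 5.75 CPM). Ptch1, the hedgehog receptor and a target of the pathway, stood at 28.4, 44.3 and 101 CPM in epineurial, 263, 226 and 195 CPM in endoneurial and 927, 542 and 740.4 CPM in perineurial cells. Epineurial cells were thus high for 2 coreceptors, Gas1 and Cdon, and the lowest of the 3 layers for Ptch1 in every library. Hhip, a hedgehog-binding membrane protein, stood at 33.2, 11.3 and 131 CPM in epineurial and 8.27, 23.5 and 3.96 CPM in perineurial cells, so at day 7 the perineurial level was above.

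Guidance genes gave 6, 5 and 5 of 13, 11 and 13 members higher than endoneurial and 5, 4 and 4 lower, and 4, 4 and 5 of 14, 12 and 14 higher than perineurial and 8, 5 and 6 lower. Epha3, an ephrin receptor, stood at 35.7, 32.0 and 22.2 CPM in epineurial and 0.288, 1.34 and 3.68 CPM in endoneurial cells, and Slit2, a repellent, at 11.7, 13.2 and 32.8 CPM against 0, 2.41 and 2.53 CPM. Sema3d, a secreted semaphorin, stood at 48.6, 15.4 and 10.48 CPM in epineurial cells and higher in perineurial cells, at 292, 58.6 and 76.9 CPM.

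Junction and barrier genes set the epineurial class apart from the perineurial one. Against perineurial cells 1, 0 and 0 of 13, 13 and 14 counted members were higher past 2-fold and 11, 9 and 11 lower, with median log2 ratios of -3.96, -2.92 and -3.02. Against endoneurial cells 2, 0 and 1 of 8, 9 and 9 counted members were higher past 2-fold and 3, 4 and 1 lower, with median log2 ratios of -0.48, -0.54 and -0.26. Cldn1, the claudin of the perineurial barrier, stood at 3.55, 16.8 and 108 CPM in epineurial and 878, 281 and 1090.3 CPM in perineurial cells. Its epineurial level at day 21 was above those of the other 2 libraries. Ocln, occludin, was at 0, 0 and 1.55 CPM in epineurial cells and 49.6, 9.60 and 70.3 CPM in perineurial cells. Slc6a13, a GABA and taurine carrier, was at 0, 0.221 and 4.27 CPM against 146, 24.8 and 121 CPM.

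Contractile genes gave 2, 2 and 0 of 14, 13 and 12 members higher than endoneurial and 2, 1 and 3 lower. Against perineurial cells 1, 0 and 0 of 14, 13 and 12 counted members were higher past 2-fold and 12, 5 and 5 lower, with median log2 ratios of -2.36, -0.73 and -0.74. Tagln, a smooth muscle actin-binding protein, stood at 29.9, 109 and 14.1 CPM in epineurial and 1405, 150.1 and 126 CPM in perineurial cells. In the intact perineurial class, 22 of 116 cells had at least 3 UMIs of Acta2 and held 93.9% of its Acta2 UMIs. Without those 22 cells the intact perineurial median was -1.68. Tpm2, a tropomyosin, stood at 42.8, 96.7 and 32.4 CPM in epineurial and 91.9, 194 and 65.5 CPM in endoneurial cells.

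Interferon response genes gave 9, 5 and 9 of 14, 13 and 12 members higher than endoneurial, 8, 4 and 5 of 14, 13 and 12 higher than perineurial, and none lower past 2-fold in either comparison. Medians were 1.24, 0.84 and 1.31 against endoneurial and 1.77, 0.57 and 0.85 against perineurial cells. Bst2, tetherin, stood at 217, 299 and 182 CPM in epineurial and 73.8, 81.9 and 44.6 CPM in endoneurial cells, and Ifit1 at 48.4, 22.1 and 25.7 CPM against 2.88, 2.14 and 2.76 CPM. Irf7, a factor that turns on interferon genes, stood at 25.1, 36.8 and 16.5 CPM against 8.07, 5.89 and 3.45 CPM, so the same order held in every library. Immediate-early genes, which dissociation of tissue can raise, had 1, 3 and 4 of 16, 16 and 16 members higher than endoneurial and 1, 0 and 0 lower, and 10, 6 and 3 of 15, 16 and 16 higher than perineurial and none lower. Atf3 stood at 1007, 992 and 1187 CPM in epineurial, 327, 334 and 348 CPM in endoneurial and 145, 339 and 556 CPM in perineurial cells. The part of handling in these values was not tested.

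Imprinted growth genes differed between libraries. Against endoneurial cells 1, 7 and 4 of 9, 11 and 10 counted members were higher past 2-fold and 2, 0 and 0 lower, with median log2 ratios of -0.75, 1.66 and 0.40. Against perineurial cells 4, 8 and 8 of 8, 10 and 10 counted members were higher past 2-fold and 1, 0 and 0 lower, with median log2 ratios of 0.99, 2.08 and 2.21. Mest stood at 46.9, 925 and 541 CPM in epineurial and 73.8, 62.1 and 80.9 CPM in endoneurial cells. Dlk1, a Notch-like ligand, stood at 5.32, 651 and 95.3 CPM against 140.3, 28.1 and 176 CPM, so epineurial cells were below in the intact nerve, above at day 7 and below again at day 21. Epineurial Dlk1 was 26.4-fold lower (95% interval 17.1 to 43.0) in the intact nerve and 23.1-fold higher (95% interval 19.1 to 28.3) at day 7. Peg3, a zinc finger protein, stood at 57.2, 263 and 276 CPM against 62.8, 84.3 and 85.0 CPM. S phase genes showed little, with 0, 1 and 0 of 2, 4 and 2 counted members higher than endoneurial, none lower, and none past 2-fold against perineurial cells.

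**Figure D4:**
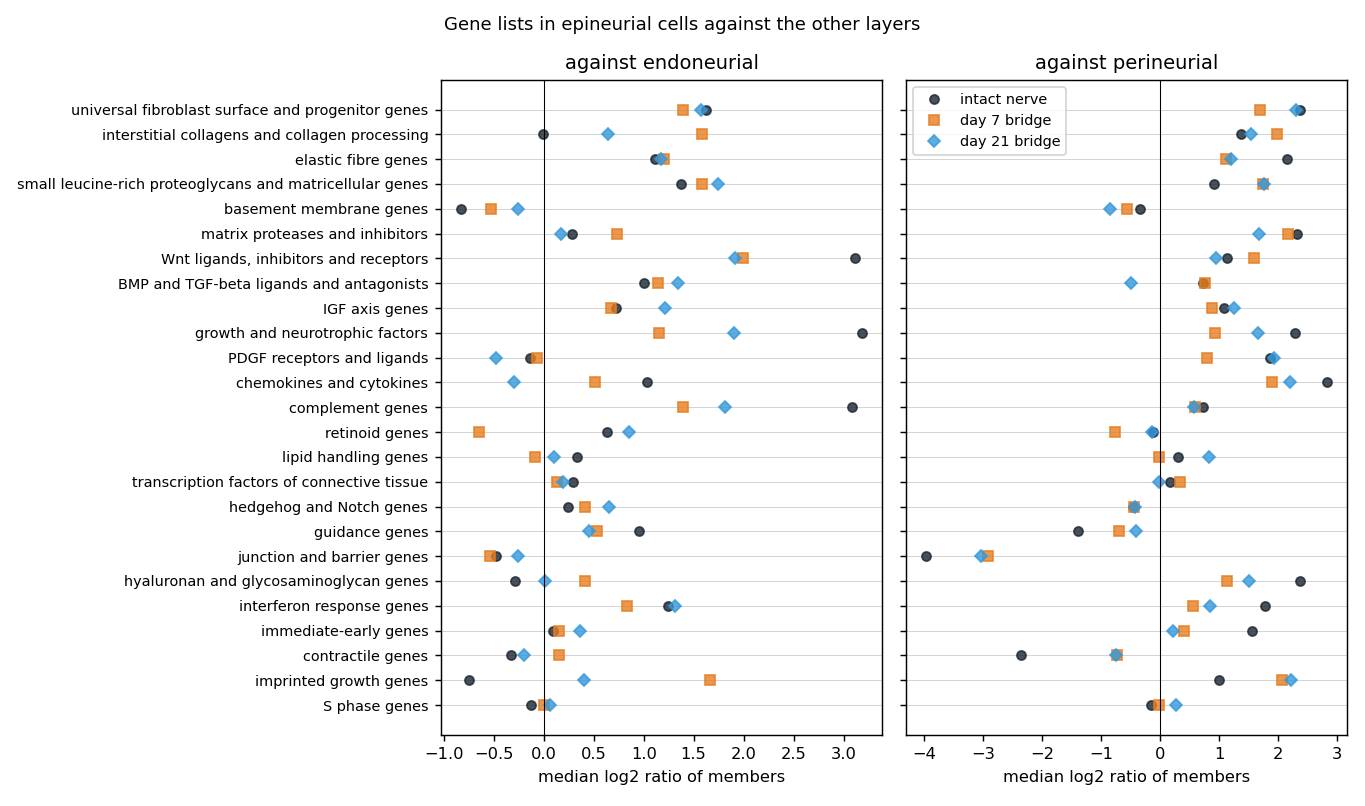
Median log2 ratio of the counted members of each of 25 gene lists (x axis) in epineurial cells against endoneurial cells (left) and perineurial cells (right), with 1 symbol per library. The Wnt, complement and surface lists lie right of 0 on the left panel in all 3 libraries, and the junction list lies at -3.96, -2.92 and -3.02 on the right panel.

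The genes past 2-fold overlapped in part between libraries. Of 417 genes higher than endoneurial in the intact nerve and counted at day 7, 273 (65.5%) were also higher at day 7, which was 65.2% of the day 7 list, beside 7.82% of all genes counted in both. Of 442 counted at day 21, 340 (76.9%) were also higher then, 71.0% of that list, beside 8.52%. Lower than endoneurial in both were 218 of 352 (61.9%) at day 7 and 242 of 383 (63.2%) at day 21, which was 65.9% and 75.4% of the later lists, beside 6.18% and 5.71% of all genes counted. Against the perineurial class, 348 of 668 higher genes (52.1%) and 294 of 744 lower genes (39.5%) of the intact nerve were past 2-fold the same way at day 7. They were 75.5% and 71.2% of the day 7 lists, beside 8.24% and 7.38% of all genes counted. At day 21 these were 433 of 690 (62.8%) and 481 of 879 (54.7%), or 80.04% and 78.9% of the day 21 lists, beside 9.01% and 10.2%. Pearson's r across genes between the intact and day 7 log2 ratios was 0.77 against endoneurial and 0.76 against perineurial cells, and between intact and day 21 0.86 in both. Genes are not independent replicates, and both ratios of a pair share the abundance of each gene. The day 7 perineurial class held 1045 CPM of its 10 markers in sum, against 5905 in the intact nerve and 3663 at day 21, and its part in the day 7 contrast was not tested. Without day 7, 201 genes were higher and 140 lower than both layers in the remaining libraries.

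After injury the classes most like the epineurial one were MES_DIFF and MES_EPI-diff. Pearson's r across genes of log2(CPM + 1) with MES_DIFF was 0.90 at day 7 and 0.88 at day 21, and with MES_EPI-diff 0.88 at day 7. With endoneurial cells it was 0.74, 0.80 and 0.79, with perineurial cells 0.56, 0.77 and 0.73, and with dividing cells 0.73 at day 7 and 0.62 at day 21. The points of each r are genes from 1 library and share its depth. Against MES_DIFF, 329 of 5791 genes (5.68%) were higher in epineurial cells at day 7 and 199 (3.44%) lower, and 343 of 6131 (5.59%) were higher and 330 (5.38%) lower at day 21. Against MES_EPI-diff at day 7, 411 of 5672 (7.25%) were higher and 180 (3.17%) lower.

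At day 7 Myoc, Scara5, Sfrp2, Nov and Eln led over MES_DIFF, and Spp1, Areg, St8sia2, Stra6 and Enpep were the lowest against it. Scara5, a scavenger receptor, stood at 84.5 CPM in epineurial and 2.00 CPM in MES_DIFF cells. Areg, the EGF receptor ligand amphiregulin, stood at 7.01 against 112 CPM, and Stra6, a retinol transporter, at 4.80 against 61.0 CPM. These genes were picked for the size of their ratios, so their wide margins follow from the choice. At day 21 Wisp2, Sfrp2, Smpd3, Pcolce2 and Rrad led over MES_DIFF, and Lgals7, F2rl1, Sbspon, Plekha6 and S100a4 were the lowest. Smpd3, a sphingomyelinase, stood at 69.2 against 1.02 CPM and Lgals7, galectin 7, at 7.86 against 434 CPM. Pi16 at day 21 was 6.08-fold higher (95% interval 5.51 to 6.73) in epineurial than in MES_DIFF cells. With cells weighted alike Pi16 stood at 762 against 93.1 CPM there, a wider gap.

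Against MES_EPI-diff at day 7, Gdf10, Myoc, Dpp4, Pi16 and Scara5 led, and Scx, Acta2, Tnc, Edil3 and Tagln were the lowest. Dpp4, a surface peptidase of fibroblast progenitors, stood at 61.7 CPM in epineurial and 0.510 CPM in MES_EPI-diff cells. Scx, the tendon transcription factor scleraxis, stood at 3.47 against 140.4 CPM. Acta2, smooth muscle actin, stood at 35.0 against 541 CPM. Dpt stood at 649 against 574 CPM and was 1.13-fold higher (95% interval 1.06 to 1.20). With cells weighted alike Dpt stood at 657 against 505 CPM, a wider gap. Pi16, by contrast, stood at 631 against 8.17 CPM. Epineurial Pi16 was 77.3-fold higher (95% interval 47.6 to 135) there.

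Epineurial cells also varied among themselves. After thinning, the variance over cells divided by the mean had a median of 1.15, 1.13 and 1.11 over 1073 ranked genes. By this ratio the highest were Malat1, Mgp, Col1a1, Igfbp5, Col3a1, Col1a2, Eln, Cst3, Cxcl14 and Ccl2. The ratio falls with a smaller mean, so abundant genes can rank high for their level. At day 7 Col1a1 was seen in 100% of epineurial cells, and the 10% richest in it held 21.3% of its thinned UMIs. For Clec3b, with a far lower ratio, that share was 34.3%. For Mgp, matrix Gla protein, which inhibits calcification, the ratio was 18.8, 12.7 and 10.9, and for Eln 7.13, 8.51 and 7.73. Of the 6 markers, Pi16 (9.27, 5.84 and 8.35) and Sfrp2 (10.8, 6.11 and 10.9) were the uneven ones. Clec3b had 2.57, 3.24 and 2.01 and Dpt 2.01, 2.03 and 2.18. The 10% of epineurial cells richest in Sfrp2 held 87.5%, 58.1% and 82.8% of its thinned UMIs. For Pi16 the richest 10% held 66.7%, 57.1% and 66.6%. Malat1, a nuclear RNA, had the highest ratio, at 43.4, 47.1 and 34.4.

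After thinning, 204 of 540, 282 of 676 and 424 of 1027 epineurial cells held a Pi16 UMI. Ly6c1 was seen in 73.5%, 56.0% and 43.6% of cells with Pi16 and 48.5%, 34.0% and 24.9% of cells without it. Pcolce2 was seen in 73.0%, 11.7% and 23.1% of cells with Pi16 and 52.4%, 2.79% and 9.62% of cells without it. Both were seen more often beside Pi16 in each library. Mgp went the other way and was seen in 52.0%, 63.1% and 72.6% of cells with Pi16 and 69.6%, 81.5% and 81.6% of cells without it. Igfbp5 was seen in 60.3%, 68.4% and 71.5% of cells with Pi16 and 43.8%, 51.8% and 63.8% of cells without it. Ccl2 was seen in 6.37%, 25.9% and 8.96% of cells with Pi16 and 7.14%, 26.1% and 9.78% of cells without it, with little difference. A missing UMI does not show that a cell lacks the transcript, and the 2 sets of cells come from the same library.

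**Figure D5:**
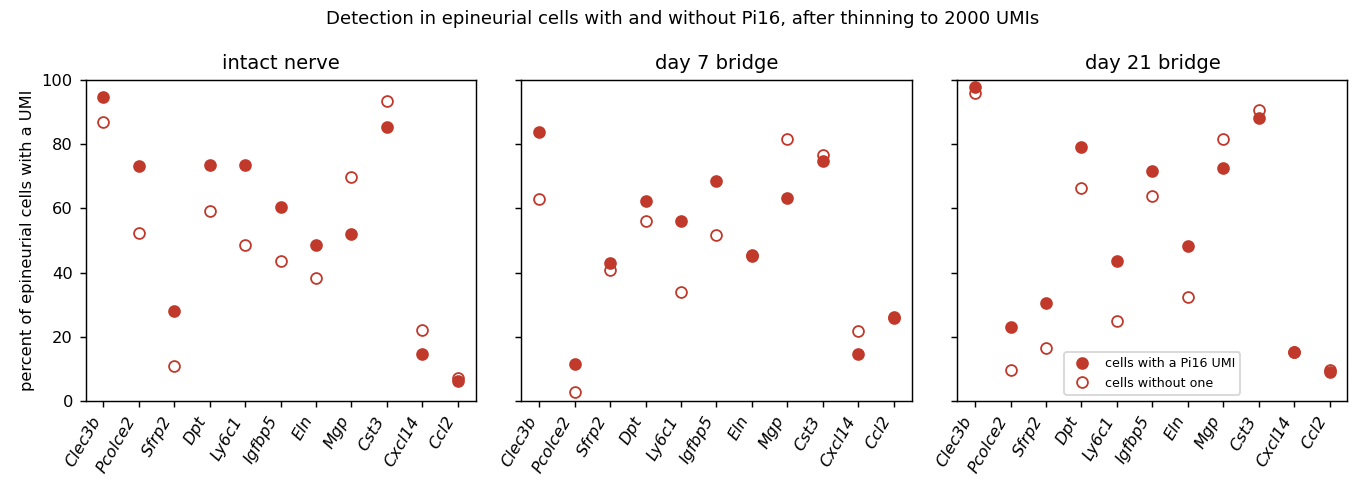
Percent of epineurial cells with a UMI of each gene (y axis) among cells with a Pi16 UMI (filled) and without one (open), after thinning to 2000 UMIs, 1 panel per library. Ly6c1, Pcolce2 and Igfbp5 lie higher in the filled points in every panel and Mgp lower.

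Markers of other cell types were summed over each list, and the sum for the injury mesenchyme was higher in epineurial than in endoneurial cells of every library. Epineurial cells held 808, 474 and 517 CPM of the 10 endoneurial markers, led by Cxcl14, against 1859.7, 1232 and 1181 CPM in endoneurial cells. Cxcl14, a chemokine, was itself higher in epineurial cells (346, 298 and 218 against 19.02, 165 and 46.2 CPM), which goes against its place on that list, as it does for Smpd3 in the intact nerve and at day 21 (224, 5.32 and 69.2 against 30.8, 1.34 and 8.04 CPM). Of the 10 perineurial markers they held 236, 152 and 433 CPM, led by Ace. Injury mesenchymal markers stood at 564, 6075 and 2822 CPM, against 84.1, 1737 and 611 CPM in endoneurial cells. Postn led the epineurial sum in both bridges, with 3856 CPM at day 7 and 1888 CPM at day 21. By member, 2, 5 and 2 of 3, 7 and 6 counted were higher past 2-fold than endoneurial and 1, 0 and 1 lower. Perineurial cells held 517, 899 and 724 CPM of the injury markers in sum, and dividing cells 3267 CPM at day 7 and 1144 CPM at day 21. The classes most like the epineurial one held more than it did. MES_DIFF cells had 7732 CPM at day 7 and 3010 CPM at day 21, and MES_EPI-diff cells 16061 CPM at day 7. Tendon and cartilage markers stood at 577, 1475 and 1039 CPM in epineurial cells, led by Cilp, against 746, 1223 and 914 CPM in endoneurial cells. Perineurial cells held 1166, 875 and 441 CPM of them, and dividing cells 787 CPM at day 7 and 271 CPM at day 21. MES_DIFF cells held 1462 CPM at day 7 and 699 CPM at day 21, and MES_EPI-diff cells 4330 CPM at day 7. The 10 dividing markers stood at 60.8, 70.6 and 57.5 CPM in epineurial cells, led by Hmgb2.

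Pericyte markers summed to 209, 180.3 and 401 CPM in epineurial cells and vascular smooth muscle markers to 81.1, 148 and 23.5 CPM. In the intact perineurial class the smooth muscle sum was 1954 CPM, the endothelial sum 357 CPM and the skeletal muscle sum 159 CPM. Each sum there came mostly from 1 gene. Tagln held 1405 CPM of the smooth muscle sum, Cdh5 352 CPM of the endothelial sum and Tnnt3 156 CPM of the skeletal muscle sum. Only 3 of 8 smooth muscle, 2 of 10 endothelial and 2 of 6 skeletal muscle markers had a UMI. The part of these sums in the intact perineurial contrast was not tested beyond the Acta2 cells. Epineurial cells held 19.8, 30.7 and 68.2 CPM of endothelial markers, 12.4, 34.8 and 21.1 CPM of myeloid markers, 32.7, 11.7 and 19.3 CPM of adipocyte markers and 2.53, 6.57 and 6.21 CPM of skeletal muscle markers. Lymphocyte markers summed to 0.507, 1.11 and 1.46 CPM, neutrophil and mast cell markers to 4.05, 0.886 and 2.33 CPM and erythroid markers to 10.6, 0.960 and 1.46 CPM. Schwann cell markers summed to 58.0, 81.4 and 252 CPM. Of these, Sox10, Foxd3 and Pmp2 were at 0 in intact epineurial cells, as were Ptprc and Adgre1 among the myeloid markers. Foxd3, Pmp2, Ptprc and Adgre1 were at 0 in intact endoneurial and perineurial cells too.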

How the data were processed

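Single-cell RNA sequencing was done by the authors on sorted TdTomato-positive mesenchymal cells from 3 pooled samples of mouse sciatic nerve. The deposited values are raw UMI counts per gene and barcode from Cell Ranger 6.1.2, per the file headers. The submitters' processing notes name Cell Ranger 6.1.2 and 3.0.2, Seurat 4.0.1 as software, with mm10 and GRCm38 as builds. Filters on cells, doublet removal and the clustering behind the classes are not given in the sources used here. Cells came from the authors' deposited annotation of library and class, and 1 of 4112 day 21 cells listed was not found in its matrix. Other barcodes of the 2205, 4876 and 7622 in the matrices, with 11509106, 58155334 and 51898719 UMIs in all, were not used.

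UMI counts were summed per class within a library and scaled to CPM of that sum. Intervals are 95% and exact (Poisson for levels, Clopper-Pearson for shares, conditional binomial for ratios). They cover counting error only. Against a class at 0, a fold is a lower bound at 3 counts over the class. No test or p-value was made, because each group is 1 library and the classes are clusters of these cells. No doublet caller was run here, and results without the 10% of cells with the most UMIs are given instead. The members and gene lists were chosen with earlier results of these data known. Named genes were the 6 markers, the 2 PDGF receptors, for each library the 10 genes leading over and the 5 lowest against every other class, the 15 leading over both layers in all libraries, the 5 extreme genes of each direction against MES_DIFF and MES_EPI-diff, up to 4 members per list and the 10 most variable genes. Some genes that the rule picks are not reported here. Leading genes had 50 CPM or more and were seen in 10% or more of epineurial cells. Of 581 listed symbols, 1 (Itgam) occurred more than once in the files and was left out. Positions are from GENCODE M21, with the same gene version as the files for 138 of 151 named genes. The ratio code was tested on simulated counts. Python 3.11.15, numpy 2.4.6, scipy 1.17.1, pandas 2.3.3 and matplotlib 3.10.9 were used.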

Additional observations from a re-analysis of the deposited data

How the results depend on the processing

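The 18 counts of genes past 2-fold (3 comparisons, 3 libraries, 2 directions) stayed within 1.5 times the value given when cells were weighted alike, with 1 count added in place of 0.5, with the trimmed mean scaling, without the 10% of cells with the most UMIs and without cells whose barcode was shared between libraries. The last of these was chosen after seeing the data, as were leaving out day 7, the day 7 perineurial class and the intact perineurial cells with Acta2, and none of these moved a count by over 1.5 times. The filter on low values and the fold that counts did move them, as their construction requires. With no abundance filter the counts were 3979, 2203 and 2990 higher and 3776, 4307 and 3978 lower against the endoneurial class, 2262, 2136 and 4083 higher and 4130, 4739 and 5678 lower against the perineurial class, and 930, 305 and 498 higher and 2900, 2017 and 3516 lower against every other class. With a filter of 100 CPM they were 206, 188 and 219 higher and 142, 128 and 113 lower against the endoneurial class, 331, 226 and 260 higher and 382, 137 and 222 lower against the perineurial class, and 146, 58 and 103 higher and 99, 25 and 55 lower against every other class. At 4-fold they were 249, 204 and 229 higher and 203, 182 and 153 lower against the endoneurial class, 411, 251 and 292 higher and 495, 224 and 275 lower against the perineurial class, and 154, 36 and 65 higher and 129, 19 and 41 lower against every other class. At 4-fold, 48.4% of genes lower than perineurial in the intact nerve were also lower at day 7 and 60.5% at day 21, in place of 39.5% and 54.7%. The share of epineurial cells was 52.2% in the intact nerve and 29.5% at day 21 among cells with at least 5000 UMIs. The median of a gene list changed sign in 14 of 144 cases at 100 CPM, where fewer genes are counted, in 7 of 150 with cells weighted alike, in 9 of 150 with the trimmed mean scaling and in 2 of 150 without the cells richest in UMIs. The medians so turned were at most 0.51 in size with cells weighted alike (chemokines and cytokines against endoneurial at day 7) and 0.15 with the trimmed mean scaling. Of the medians turned at 100 CPM, 2 were past 2-fold under the main filter, both in the intact nerve. Chemokines and cytokines against endoneurial went from 1.03 to -0.82. Hyaluronan and glycosaminoglycan genes against perineurial went from 2.38 to -0.75. Of 1661 ratios of named genes, 330 moved beyond their counting interval with cells weighted alike and 370 without the cells richest in UMIs, and the cause was not tested. Of those past 2-fold, 1 reversed with cells weighted alike, Sbspon against MES_EPI-diff at day 7 (-0.79 log2), and 1 without the cells richest in UMIs, Ptgds against endoneurial at day 21 (-1.26), where the class with fewer held 3 Sbspon UMIs (MES_EPI-diff) and 0 Ptgds UMIs (endoneurial). Thinning to 1000 UMIs lowered all 30 variance ratios, as a smaller mean does. No paired analysis was possible because each group was 1 library. Depth limits low genes most: a count of 0 allowed up to 4.14 CPM in the intact perineurial class of 116 cells, and up to 0.221 CPM in day 7 epineurial cells. No value here separates a difference between conditions from one between the libraries that carry them.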

Other observations

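Epineurial cells with and without a Pi16 UMI also differed in other genes, some of them named above. The split was made after the uneven spread of Pi16 was seen, and it is a description of thinned cells with no test. Of 1070 genes other than Pi16 with a thinned mean of at least 0.2 in either set, 6 were higher past 2-fold beside Pi16 in all 3 libraries and 0 were lower past 2-fold in all 3. The first by the smallest of their 3 ratios were Pcsk6, Sema3c, Anxa3 and Ackr3, and those low beside Pi16 in all 3 libraries were led by Tmem176b, Cxcl12, Gdf10 and Nrp1. Pcsk6 had a mean of 0.284, 0.298 and 0.238 UMIs per cell with Pi16 and 0.0625, 0.0355 and 0.0448 without it, in the order intact, day 7 and day 21. Sema3c, a secreted semaphorin, had 0.618, 0.816 and 0.573 UMIs per cell with Pi16 and 0.122, 0.246 and 0.144 without it. Anxa3, an annexin that binds membranes, had 0.760, 0.521 and 0.517 UMIs per cell with Pi16 and 0.190, 0.178 and 0.141 without it, and Ackr3, a scavenging receptor for Cxcl12, had 0.755, 0.564 and 0.512 UMIs per cell with Pi16 and 0.208, 0.228 and 0.124 without it. These genes were picked by their ratios, so being high beside Pi16 in every library follows from the choice. The same holds for the genes named as low beside it. Pcsk6 and Anxa3 were under a mean of 0.2 without Pi16 in all 3 libraries, so they were counted through the cells with it. Cxcl12 itself had 0.525, 0.191 and 0.222 UMIs per cell with Pi16 and 1.31, 0.401 and 0.340 without it. The set of cells with Pi16 thus had the higher mean of the receptor and the lower mean of its ligand. Ackr3 was seen in 40.2%, 37.9% and 28.3% of cells with Pi16 and Cxcl12 in 26.0%, 14.9% and 17.5%. How the receptor and its ligand went together in single cells was not tested. Gdf10, which led over the other layers, had 0.843, 0.191 and 0.547 UMIs per cell with Pi16 and 1.33, 0.292 and 0.910 without it. The log2 ratios of Cxcl12 were -1.31, -1.06 and -0.61, smallest in size at day 21. After thinning, cells with a Pi16 UMI numbered 204, 282 and 424, and those without 336, 394 and 603.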
